A study of Mus musculus with 4 samples.

Results

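The genes described here are 5 core genes of the angiotensin system, *Agtr1a*, *Agtr1b*, *Agtr2*, *Agt* and *Ace*, among 22096 gene symbols measured by RNA-seq in palatal mesenchyme of mouse embryos with and without *Foxf2*. They were picked by symbol, and the set was built around *Agtr1a* because its level was seen to be higher in the *Foxf2*-/- embryos. The differences of the 5 genes between genotypes are therefore given as descriptions, without a test. The unit is FPKM, a read number divided by transcript length and by the mapped reads of the library, and each gene's value sums its RefSeq entries.

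Values came from 4 littermates of mixed background at embryonic day 13.5. The groups were 2 embryos of the genotype *Foxf2*-/-*Osr2*RFP/+, 1 *Foxf2*+/-*Osr2*RFP/+ embryo and 1 *Osr2*RFP/+ embryo, which carried both wildtype *Foxf2* alleles (*Foxf2*+/+). They are called the mutants, the heterozygote and the wildtype below, and the heterozygote and wildtype together are the controls. Every embryo, controls included, thus carried the *Osr2*RFP knock-in, a red reporter in the *Osr2* locus. Its RFP-positive cells were sorted from dissected palatal shelves and sequenced on their own. Foxf2 is a forkhead transcription factor, here deleted from the whole embryo rather than from the palate alone. With 1 embryo per control genotype, no difference between the controls has a replicate check, and an exact permutation test of 2 embryos against 2 cannot give a p below 0.333.

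The angiotensin system is best known for the control of blood pressure and salt balance. Angiotensinogen, the product of *Agt*, is cut by renin to angiotensin I, and angiotensin-converting enzyme, the product of *Ace*, trims that to angiotensin II. Angiotensin II acts through 2 kinds of G protein-coupled receptor. AT1 receptors, which in rodents come from the paired genes *Agtr1a* and *Agtr1b*, drive contraction and growth responses. The AT2 receptor, from the X-linked gene *Agtr2*, often opposes them and is known for high levels in the mesenchyme of fetuses.

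*Agtr1a* and *Agtr1b* are close copies, so the first question for *Agtr1a* is whether its reads could have come from *Agtr1b*. The first 120 coding bases of both genes are shown from GENCODE M1 on the mm9 build, 5′ to 3′ from the start codon, with the 8 bases that differ between them in capitals.

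Agtr1a: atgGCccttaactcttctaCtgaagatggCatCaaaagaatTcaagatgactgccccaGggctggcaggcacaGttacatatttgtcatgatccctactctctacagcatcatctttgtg

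Agtr1b: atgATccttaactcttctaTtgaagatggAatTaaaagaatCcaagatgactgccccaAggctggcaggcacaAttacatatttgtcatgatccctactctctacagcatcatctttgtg

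Over the whole coding sequence, stop codon included, the copies shared 981 of 1080 bases (90.8%), and their longest identical stretch was 66 bases. Of the 2150 windows of 50 bases in the *Agtr1a* transcript, 33 (1.53%) also occurred in the *Agtr1b* transcript. A read of that length could therefore match both copies exactly in only a small portion of the transcript. Windows that differ between the copies by a few bases were not counted, and mapping may allow mismatches. The read length of the libraries is not given in the sources used here. *Agtr1a* and *Agtr2* shared 575 of 1145 aligned coding positions (50.2%) and no 50-base window.

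*Agtr1a* lies on chromosome 13 (mm9 chr13:30428225-30474736, plus strand). Its single RefSeq entry, NM_177322, is 2284 bases long, and GENCODE M1 gives it 3 exons, of which the third (chr13:30472771-30474736) holds all of the coding sequence. Its FPKM was 0.951 in the wildtype and 1.40 in the heterozygote. In the mutants it was 2.69 and 2.02. Both mutants were thus above both controls, with means of 2.36 ± 0.475 (SD, n = 2) against 1.17 ± 0.317 (SD, n = 2). In such bulk RNA, fewer cells with *Agtr1a* in the controls and less *Agtr1a* RNA per cell cannot be told apart.

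On the log2(FPKM + 0.1) scale, which understates the change of low genes, the mean of the mutants was 1.21 above the wildtype, a 2.32-fold difference. Against the heterozygote it was 0.70, or 1.63-fold, and against the mean of both controls 0.96, or 1.94-fold. The fold over the heterozygote was 1.39 with a pseudocount of 1 FPKM and 1.42 without the first mutant, under the 1.5-fold limit used below. From low to high, the 4 values belonged to the wildtype, the heterozygote, the second and the first mutant, and the 3 steps between them were of like size, at 0.51, 0.50 and 0.40 on the log2 scale. Between the mutants, the 2464 genes with a mean FPKM of 1 to 3 differed by a median of 0.204, only 5% of them differed by more than 0.717, and each of the 3 steps lay between these values.

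**Figure D1:**
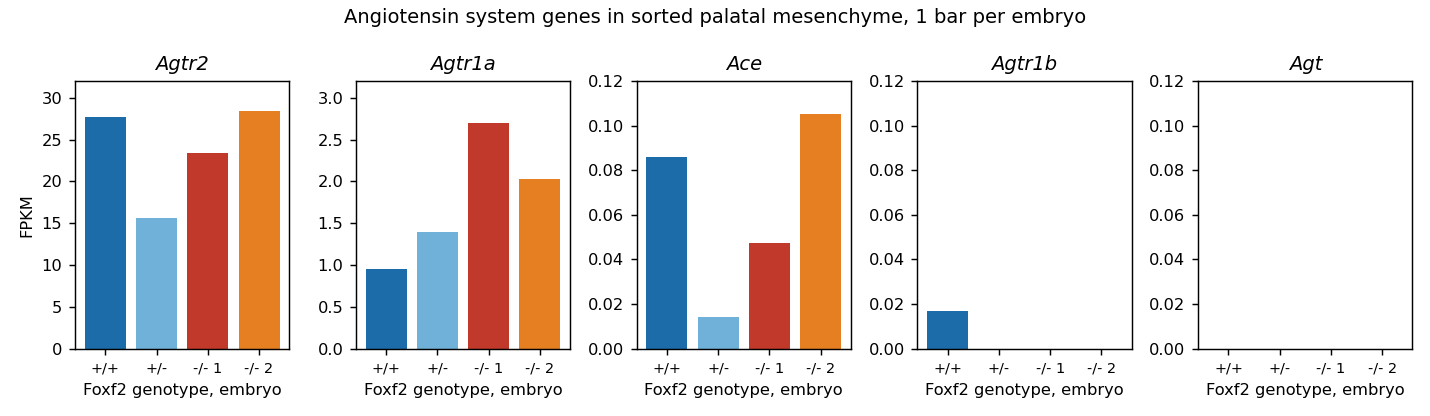
FPKM of the 5 genes in each embryo, 1 bar per embryo and 1 panel per gene, with a vertical axis of its own for each panel. *Agtr2* sat between 15.6 and 28.4 FPKM with overlapping genotypes, *Agtr1a* was 2.69 and 2.02 in the mutants against 0.951 and 1.40 in the controls, and the other 3 genes stayed at or below 0.105 FPKM.

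*Agtr1a* was a low-abundance transcript in every embryo. From the deposited coverage, its FPKM corresponded to roughly 55.7 reads in the wildtype library, 97.4 in the heterozygous library, and 158 and 140 in the mutant libraries. Counting error alone at these numbers is about 13.4%, 10.1%, 7.97% and 8.45% of the value. It ranked above 7.69% and 13.9% of the 12212 genes tested in the controls and above 28.2% and 20.2% in the mutants. A gene was tested when its mean FPKM over the 4 embryos was at least 0.5, and *Agtr1a* and *Agtr2* passed this filter while *Agtr1b*, *Agt* and *Ace* did not.

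Set against all genes, the change of *Agtr1a* was uncommon, as its selection for that change requires. Of the 12212 genes tested, 104 were more than 1.5-fold above each control (0.852%), and *Agtr1a* was 1 of the 2 tested genes of the set among them. Genes of similar abundance gave a higher share, with 40 of the 2464 genes with a mean FPKM of 1 to 3 above this limit (1.62%). A log2 difference at least as large as that of *Agtr1a* was found for 30 of the genes of similar abundance (1.22%) and for 80 of all genes tested (0.655%). Both mutants were above both controls for 10.5% of genes tested and below both for 34.6%, and the median log2 difference of all genes tested was -0.08. After rescaling the embryos by median ratios these shares were 21.0% and 21.3%, the median was -0.00052, and *Agtr1a* was 0.907, 1.38, 2.85 and 2.02 FPKM in the same order of embryos.

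*Agtr2* (mm9 chrX:21061752-21065957, plus strand, entry NM_007429 of 2868 bases) was by far the most abundant of the 5 genes. Its FPKM was 27.7 in the wildtype, 15.6 in the heterozygote, and 23.3 and 28.4 in the mutants. It ranked above 77.6% to 88.9% of the genes tested. The genotypes overlapped, with a mutant mean of 25.9 ± 3.57 (SD, n = 2) and a control mean of 21.6 ± 8.51 (SD, n = 2), and *Agtr2* is in neither direction among the genes changed more than 1.5-fold against each control.

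The direction of *Agtr2* depended on the control. The mutant mean was 0.72 above the heterozygote on the log2 scale and 0.10 below the wildtype, at -0.10. After median-ratio scaling the second difference was 0.00403, so its sign depended on the scaling. The odd value was that of the heterozygote, which lay 0.82 under the wildtype (-0.82). Among the 3579 genes with a mean FPKM of 10 to 50, 17 (0.475%) differed as much between the controls, and the median difference was 0.0948. Counting error was small beside this gap, since the *Agtr2* values rested on roughly 1366 to 2469 reads per library. *Agtr2* is X-linked, and all 4 libraries were of male type, with *Xist* at 0.0270 to 0.0455 FPKM and the Y-linked *Ddx3y* at 5.52 to 6.28 FPKM.

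Because FPKM is scaled by transcript length, the receptors can be compared within an embryo. *Agtr2* stood at 29.1 times the FPKM of *Agtr1a* in the wildtype and 11.2 times in the heterozygote. In the mutants the ratio was 8.66 and 14.0. AT2 receptor transcript thus exceeded AT1 receptor transcript in every embryo, and the ratio of the heterozygote fell between those of the mutants.

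The second AT1 receptor gene, *Agtr1b* (mm9 chr3:20213395-20266099, minus strand, entry NM_175086 of 2147 bases), was near the floor. It was listed at 0.0167 FPKM in the wildtype, which is about 0.922 of a read, and at 0 in the other 3. The AT1 receptor signal of these cells was therefore listed almost wholly under *Agtr1a*, including the higher values of the mutants.

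The precursor gene *Agt* (mm9 chr8:127080487-127093607, entry NM_007428 of 1839 bases) was listed at 0 in all 4 embryos. A single read on *Agt* would have given 0.0178 to 0.0212 FPKM, so levels below that were not detectable at this depth. For comparison, 15 genes used by every cell were listed between 6.40 and 1596 FPKM in all embryos. They are abundant, so their values do not show whether a low transcript such as *Agt* was missed.

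*Ace* (mm9 chr11:105829259-105851278) was listed at 0.0859 FPKM in the wildtype, 0.0140 in the heterozygote, and 0.0476 and 0.105 in the mutants. These values correspond to roughly 2.10 to 14.5 reads per library, the genotypes overlapped, and no fold change is given. Both of its RefSeq entries were low. The longer, NM_207624 of 4906 bases, had 0.0140 to 0.0839 FPKM, and the shorter, NM_009598 of 3129 bases, at most 0.0400. *Ace* also overlaps the gene *Gm11651* on the opposite strand, and the library kit does not mark strand, so the few reads cannot be assigned between them. None of the other 4 genes overlaps another gene in GENCODE M1.

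*Agtr1a* and *Foxf2* lie on the same chromosome, with 1243 kb between the end of *Agtr1a* and the start of *Foxf2*. Every *Foxf2* null chromosome carries its own copy of this neighbourhood, in embryos of mixed background, so the effect of losing *Foxf2* and that of alleles linked to the null chromosome cannot be told apart in these data. The genes starting within 2 Mb of *Foxf2* were therefore examined with it. *Foxf2* itself fell, from 85.4 FPKM in the wildtype and 45.1 in the heterozygote to 1.41 and 2.28, a log2 difference of -5.03 (limma, adjusted p = 0.00584), which matches the labels.

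Of 26 genes in that window 13 were tested, 11 of them besides *Foxf2* and *Agtr1a*. Without rescaling, both mutants were above both controls for 6 of the 11 and below both for 2, while 3 overlapped. The shares over all genes tested were 10.5% above and 34.6% below. For *Dusp22* the lead was slight, at 6.743 FPKM in the first mutant against 6.741 in the wildtype. After median-ratio scaling the shares over all genes were 21.0% and 21.3%, and the neighbours were not recounted. In 4 of the 6 the heterozygote was also above the wildtype, the order seen for *Agtr1a*. Their median log2 difference was 0.13, against -0.08 for all genes tested. In the main fit, with both controls as 1 group, none of the 11 passed limma. That fit called 8 of 12212 genes tested (0.0655%) at an adjusted p under 0.05 and more than 1.5-fold. Of these, 6 were higher and 2 lower in the mutants. Neighbours that passed under alternatives with all 4 embryos are given below.

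Of the 11 neighbours, 2 were more than 1.5-fold above each control, beside 0.852% of all genes tested. *Foxq1*, a forkhead gene close to *Foxf2*, was 1.08 FPKM in the wildtype, 9.01 in the heterozygote, and 17.9 and 19.9 in the mutants (log2 difference 2.53, limma adjusted p = 0.307). With the number of null alleles as a linear term, over all 4 embryos, *Foxq1* passed limma (adjusted p = 0.0393). The fitted log2 difference from wildtype to mutant was then 3.83. Without the heterozygote the log2 difference of *Foxq1* was 4.00, with the wildtype as the only control. *Foxc1*, a forkhead gene 181 kb from *Foxf2* on its other side, was 0.772, 1.15, 1.89 and 2.05 FPKM in the same order (0.99, adjusted p = 0.242). *Foxc1* had the order of *Agtr1a* over the genotypes, with the mutants in the opposite order to each other. More than 1.5-fold below each control was only 1, the RIKEN transcript 1700018A04Rik beside *Foxq1*, at 12.9, 6.09, 0 and 0.563 FPKM (-5.12, adjusted p = 0.115). With a pseudocount of 1 FPKM, over all 4 embryos, it passed limma (-2.99, adjusted p = 0.0344). Without the first or without the second mutant its log2 difference was -3.75 or -6.48, with 1 mutant left. Over all genes tested 130 (1.06%) were more than 1.5-fold below each control.

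Between *Agtr1a* and *Foxf2* the tested genes did not move alike. *Uqcrfs1*, a subunit of the respiratory chain next to *Agtr1a*, was 19.0, 17.7, 18.7 and 19.3 FPKM in the order above (log2 difference 0.05, limma adjusted p = 0.846). *Dusp22*, a phosphatase gene, was 6.74, 6.16, 6.74 and 7.38 FPKM (0.13, adjusted p = 0.674). Nearer to *Foxf2*, *Exoc2*, a subunit of the exocyst that tethers secretory vesicles, was 18.1, 28.8, 40.1 and 39.7 FPKM (0.80, adjusted p = 0.244, and 0.0327 without the heterozygote, with a lone control and the spread of the mutants only). *Exoc2* thus had the order of *Agtr1a* with the heterozygote in between, whereas the 2 genes closer to *Agtr1a* stayed near the same level. *Irf4* and *Hus1b*, also in this interval, were below the filter.

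On the far side of *Agtr1a* from *Foxf2*, *Mboat1*, an acyltransferase gene chosen for mention after its values were seen, was 2.34 and 2.20 FPKM in the mutants against 1.48 and 1.37 in the controls (log2 difference 0.63, limma adjusted p = 0.275). Unlike *Agtr1a*, it had the heterozygote below the wildtype.

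**Figure D2:**
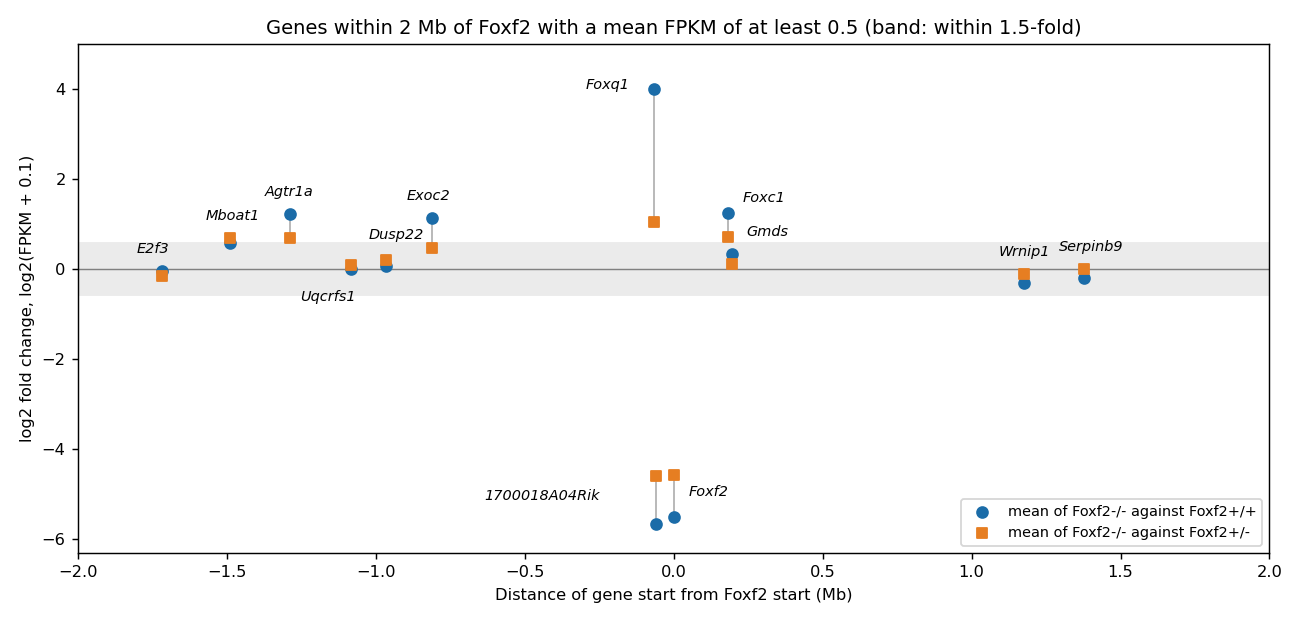
Log2 fold change of the 13 tested genes within 2 Mb of *Foxf2*, by distance of the gene start from the *Foxf2* start, with the mean of the mutants set against the wildtype (circles) and against the heterozygote (squares), and a grey band within 1.5-fold. *Agtr1a*, *Foxq1* and *Foxc1* lie above the band against both controls, *Uqcrfs1* and *Dusp22* lie near 0, and 1700018A04Rik lies as low as *Foxf2*.

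Other genes of the pathway were taken from 5 lists of 104 genes besides the 5 core genes. Of these, 103 were in the files and 65 were tested. In the main fit no gene of the lists was called by limma, and 5 had an unadjusted p under 0.05, against 1541 of the 12212 genes tested. *Cpm* was called under an alternative with all 4 embryos, given below. More than 1.5-fold above each control was 1 of the 65, and 0 were as far below, beside 0.852% and 1.06% of all genes tested. Both mutants were above both controls for 9 (13.8%) and below both for 22 (33.8%), shares that read against 10.5% and 34.6% over all genes. The median log2 difference of the 65 was -0.08, as over all genes.

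Enzymes that make or cut angiotensin peptides, with their further receptors, gave 13 tested genes of 23 listed, with log2 differences between -0.23 and 0.32. The renin step was barely represented. *Ren1*, the renin gene, was listed at 0.713 FPKM in the wildtype, 0 in the heterozygote, and 0 and 0.0951 in the mutants, and *Ren2*, its duplicate in some mouse strains, at no more than 2.62e-05. The 2 are near-identical copies, and reads may have been split between them. *Atp6ap2*, the prorenin receptor and a subunit of the vacuolar proton pump, was 1.66, 1.60, 1.65 and 2.09 FPKM from the wildtype to the second mutant (limma adjusted p = 0.728).

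Other peptidases that act on angiotensins were far more abundant than *Ace*. Neprilysin, from *Mme*, which degrades them, was 72.1, 59.8, 61.4 and 66.4 FPKM in the same order (limma adjusted p = 0.911), and *Ctsd*, the lysosomal protease cathepsin D, known for a renin-like release of angiotensin I, 45.1, 39.0, 39.7 and 47.3 (adjusted p = 0.903). *Enpep*, the aminopeptidase A that turns angiotensin II into angiotensin III, was 7.14, 9.07, 8.03 and 6.67 FPKM (adjusted p = 0.748). *Lnpep*, the insulin-regulated aminopeptidase that binds angiotensin IV, was 6.19, 5.78, 5.56 and 5.46 FPKM (adjusted p = 0.693). Mutants and controls overlapped for the first 3, and for *Lnpep* the gap between them was smaller than the difference between the controls.

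*Mas1*, the receptor of the shorter peptide angiotensin-(1-7), was low. It was 0.440 and 0.271 FPKM in the mutants against 0.204 and 0.254 in the controls. This is below the filter, so no fold change is given.

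**Figure D3:**
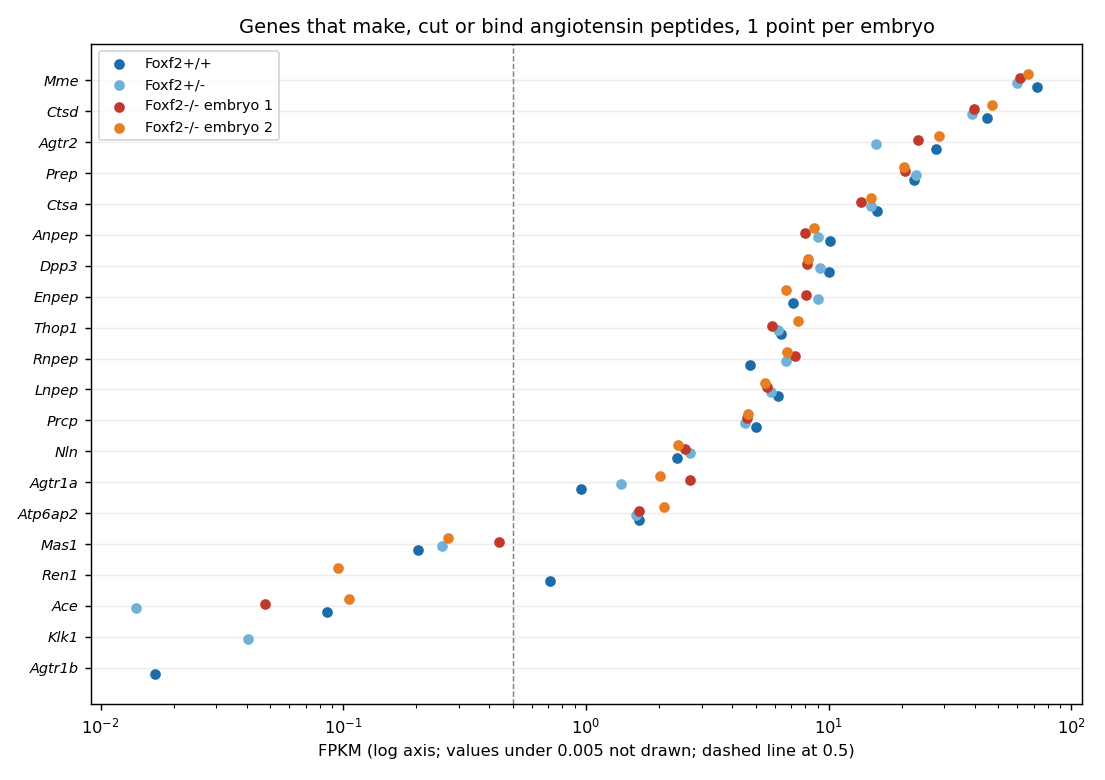
FPKM on a log axis of the core genes and of genes that make, cut or bind angiotensin peptides, 1 point per embryo, ordered by mean, with values under 0.005 not drawn and a dashed line at the filter of 0.5. *Mme* and *Ctsd* lie at 39.0 FPKM or more and *Agtr2* follows, while *Ace*, *Ren1* and *Agtr1b* lie left of the line except for *Ren1* in the wildtype.

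Partners and transducers of the AT1 and AT2 receptors were well represented, with 32 of 37 tested, a median log2 difference of -0.09 and a range from -0.47 to 0.49. *Agtrap*, whose product binds AT1 receptors and promotes their internalisation, was 1.69, 1.72, 1.77 and 1.58 FPKM (limma adjusted p = 0.971). *Mtus1*, whose product binds the AT2 receptor, was 3.04, 3.43, 2.82 and 3.00 FPKM (adjusted p = 0.698). The most abundant were the inhibitory G protein subunits *Gnai2*, at 79.5 to 89.1 FPKM (adjusted p = 0.741), and *Gnai3*, at 36.7 to 41.8 FPKM (adjusted p = 0.524). The ends of the range were chosen for mention after their values were seen. *Rgs2*, which damps Gq signals, was 14.2 and 14.1 FPKM in the mutants against 10.6 and 9.53 in the controls (log2 difference 0.49, adjusted p = 0.183). *Jak2*, a kinase that AT1 receptors engage, was 9.66 and 8.70 FPKM in the mutants against 13.9 and 11.8 in the controls (-0.47, adjusted p = 0.252). Neither gene overlapped between the groups, and neither passed limma. Over all genes tested, both mutants were above both controls for 10.5% and below both for 34.6%.

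Genes known to respond to AT1 signalling gave 9 tested of 18, with a median log2 difference of 0.03 and a range from -0.26 to 0.36. None was more than 1.5-fold away from each control. *Fn1*, the matrix protein fibronectin, was 108, 97.4, 103 and 102 FPKM (limma adjusted p = 0.999). *Rcan1*, an inhibitor of calcineurin, was 8.23, 9.29, 7.59 and 9.06 FPKM (adjusted p = 0.842).

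The kinin system, which shares *Ace* and other peptidases with the angiotensin system, had 6 of 13 genes tested. The other 7 were listed at 0 in all embryos, among them the kininogen gene *Kng1* and the bradykinin receptor genes *Bdkrb1* and *Bdkrb2*. *Ece1*, an endothelin-converting enzyme, was 19.6 to 23.2 FPKM (limma adjusted p = 0.970), and *Xpnpep1*, an aminopeptidase, 13.5 to 15.2 (adjusted p = 0.684). *Cpm*, a carboxypeptidase of the cell surface, named after its values were seen, was 13.6 FPKM in the wildtype, 8.16 in the heterozygote, and 5.54 and 5.97 in the mutants (log2 difference -0.86, adjusted p = 0.259, and 0.0429 without the heterozygote, with a lone control and the spread of the mutants only). *Cpm* ran in the opposite order to *Agtr1a*, with the heterozygote again in between.

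Of the mineralocorticoid and glucocorticoid genes, downstream of angiotensin II in the adrenal, 5 of 13 were tested. *Nr3c1*, the glucocorticoid receptor, was the 1 of the 65 tested pathway genes more than 1.5-fold above each control, beside 0.852% of all genes tested. It was 4.55 and 4.75 FPKM in the mutants against 2.52 and 2.65 in the controls, a log2 difference of 0.82 that missed the limma threshold (adjusted p = 0.115). *Sgk1*, a kinase induced by corticosteroids, was 5.51, 6.26, 5.01 and 5.07 FPKM (adjusted p = 0.492).

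**Figure D4:**
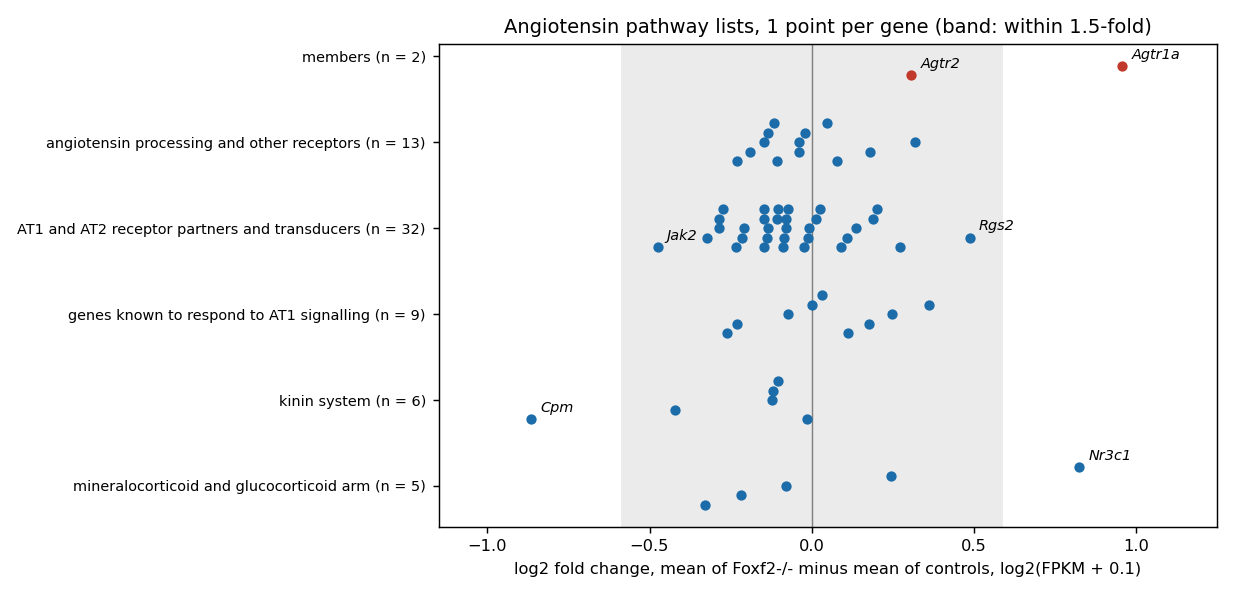
Log2 fold change of each tested gene, mean of the mutants minus mean of the controls on log2(FPKM + 0.1), by list, with a grey band within 1.5-fold. *Agtr1a* at 0.96, *Nr3c1* at 0.82 and *Cpm* at -0.86 lie outside the band, and the other 64 points, *Agtr2* included, lie inside it.

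The genes whose pattern was most like *Agtr1a* were ranked by the distance between log2 values centred on each gene's mean, over the 4 embryos. The 10 nearest were *Dsp* (0.101), *Kcne4* (0.12), *Dpysl5* (0.14), *Matk* (0.147), *Tec* (0.264), *Camk1d* (0.267), *Cxxc5* (0.276), *Crip2* (0.283), *Shc3* (0.322) and *Zfp536* (0.327), with the distance in brackets. Over all genes tested the median distance was 1.18 and the nearest 1% lay within 0.588. None of the 10 is in the pathway lists. The nearest, *Dsp*, the desmosome protein desmoplakin, was 0.905 and 0.670 FPKM in the mutants against 0.248 and 0.427 in the controls. All 10 were of low abundance, with a mean FPKM of 0.562 to 1.98, and 8 of them were more than 1.5-fold above each control, as their likeness to *Agtr1a* requires. *Dsp* and *Shc3*, an adaptor of receptor tyrosine kinases, are on chromosome 13, outside the 2 Mb window around *Foxf2*.

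**Figure D5:**
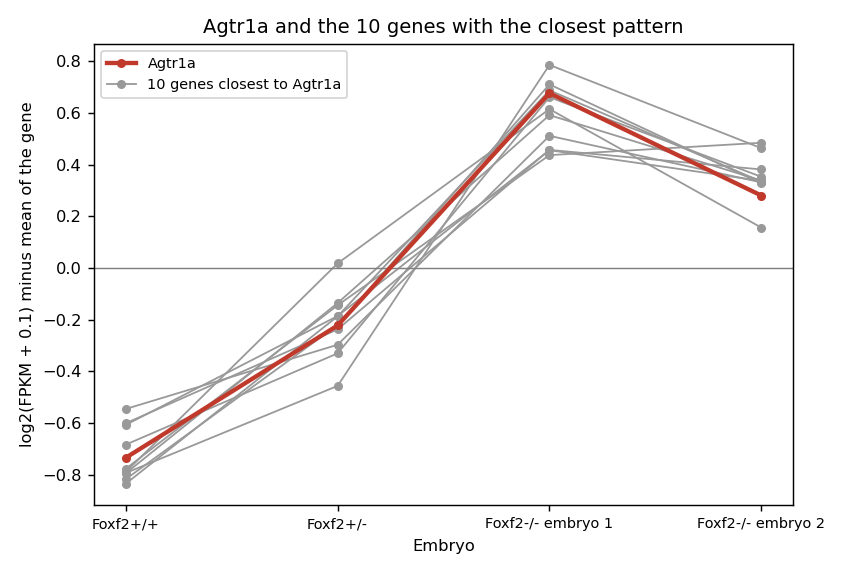
Centred log2(FPKM + 0.1) of *Agtr1a* (red) and of the 10 genes nearest to it (grey) in each embryo. All 11 lines run from their lowest value in the wildtype to positive values in both mutants, as the choice by distance fixes.

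Markers of the labelled cell type were present in all libraries. All 13 palatal mesenchyme markers were tested, and their summed FPKM was 1045 to 1172 in the controls and 998 to 1131 in the mutants. The sort gene *Osr2* was 128.9 to 147.5. Without rescaling, both mutants were below both controls for 7 of the 13 and above both for 1, beside 34.6% and 10.5% of all genes tested. None was called by limma. *Shox2*, named after its values were seen, was 113.5, 73.4, 47.7 and 63.7 FPKM from the wildtype to the second mutant (limma adjusted p = 0.303). Of 11 mural cell markers, which bear on *Agtr1a* as a gene also known from pericytes and smooth muscle, 9 were tested. They summed to 59.3 to 64.3 FPKM in the controls and 58.6 to 65.0 in the mutants, with none at 0 in all embryos. *Pdgfrb*, at 36.4 to 40.6 FPKM, made up most of that sum. On values without rescaling, both mutants were above both controls for 4 of the 9 tested, against 10.5% over all genes. These were *Notch3* (6.55 and 7.17 FPKM against 6.53 and 6.00), *Acta2* (3.33 and 3.95 against 3.00 and 2.87), *Tagln* (0.870 and 0.771 against 0.646 and 0.484) and *Mcam* (3.18 and 4.21 against 3.18 and 2.88), none of them called by limma. The lead of the lower mutant was slight for *Notch3* (6.546 against 6.531 FPKM) and *Mcam* (3.184 against 3.179). After median-ratio scaling the share above over all genes was 21.0%, and the mural markers were not recounted. *Tagln*, like *Agtr1a*, was highest in the first mutant. *Abcc9* was more than 1.5-fold above each control through the second mutant (0.256, 0.473, 0.352 and 1.65 FPKM), and *Myh11* was as far below (1.13, 0.840, 0.364 and 0.443). The part of mural cells in the *Agtr1a* values was not tested.

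Blood and vessel transcripts varied more. The 12 erythroid markers, 9 of them tested and none at 0 in all embryos, summed to 1599 and 4377 FPKM in the mutants. In the controls they summed to 298 and 1839, so the sums overlapped. The log2 differences of the 9 tested were all positive, from 1.15 to 3.18 with a median of 1.77, against -0.08 over all genes tested. Both mutants were above both controls for 2 of the 9, beside 10.5% of all genes tested, and none was called by limma. Of the 9 tested, 3 were more than 1.5-fold above each control, beside 0.852% of all genes tested. The 11 endothelial markers, 1 of them tested, summed to only 1.92 and 2.74 FPKM in the mutants against 0.973 and 1.61 in the controls, with *Pecam1* at 0.0125 to 0.0962 and *Cldn5* at 0 in all. Both sums were highest in the second mutant and *Agtr1a* in the first. Their part in the *Agtr1a* values was not tested. Macrophage and epithelial marker sums overlapped between the groups, at no more than 37.9 and 13.5 FPKM. Skeletal muscle markers summed to 2.24 and 2.25 FPKM in the mutants against 2.87 and 3.97 in the controls, and neural and Schwann markers to 31.6 and 32.7 against 35.1 and 34.3. Most of the neural sum was *Ncam1*, at 25.2 to 30.7 FPKM. Below the filter, the Schwann and neural crest markers *Sox10* and *Foxd3* were higher in both mutants, *Sox10* at 0.469 and 0.352 FPKM against 0.142 and 0.156, and *Foxd3* at 0.0973 and 0.129 against 0.0497 and 0.0427. *Sox10* was highest in the first mutant, as was *Agtr1a*, and the part of these cells in its values was not tested.

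Forkhead motifs were searched in RefSeq promoter windows of 300 bases around each gene's start, in GRCm38.p6. Either TGTTTAC or TATTTAC, forms of the forkhead core that differ at 1 base so that no position matches both, occurred on either strand in 2150 of 32851 windows (6.54%). The 5 windows of *Agtr1b*, *Agtr2*, *Agt* and *Ace* held neither, which says only that these letters are not in these windows.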

How the data were processed

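RNA-seq was done on sorted RFP-positive palatal mesenchyme of 4 embryos, each sequenced on its own. The authors mapped the single-end reads with Tophat and Bowtie (0.12.7 in the submitters' processing notes) onto mm9. The deposited FPKM values are in tables of the form Cufflinks writes, 28107 RefSeq entries per embryo, and the program's version and options are not given in the sources used here. The deposited coverage beside each FPKM is the mean read depth over an entry, not scaled for library size. The ratio of coverage to FPKM, 1.36 (*Foxf2*+/+), 1.61 (*Foxf2*+/-), 1.39 and 1.55 (*Foxf2*-/-), gives relative depths of 1, 1.19, 1.02 and 1.14. The files hold no counts. Read equivalents are estimates from the coverage of the lowest genes, with a median of 51.2 to 54.3 bases of coverage per read, and cover counting error only.

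Entries of at least 200 bases were summed by symbol, and 10 symbols with a failed estimate were left out. Genes with a mean FPKM of at least 0.5 over all embryos were tested (12212 of 21352) on log2(FPKM + 0.1) with limma 3.58.1 in R 4.3.3, the 2 mutants against both controls as 1 group, with a variance trend and Benjamini-Hochberg adjustment over all genes tested. All adjusted p-values are from limma. The study's own test needs read counts and was not used. The scripts were tested on simulated data. A gene changed against each control when the *Foxf2*-/- mean differed by more than 1.5-fold from each, in the same direction. Alternatives varied the pseudocount, scaling, filter, entries, fold limit, limma design and embryos.

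Named genes were the core genes, pathway genes that are angiotensin enzymes or receptors, the 2 most abundant of each list, those changed against each control, the 10 most like *Agtr1a*, and tested genes near *Foxf2* that changed or lie between the 2 loci. Genes named otherwise are marked in the text. A gene under this rule is not reported here. The members and lists were chosen with earlier results of these data known. Sequences were compared with Biopython 1.88 on GENCODE M1 transcripts, and other steps used pandas 2.3.3, numpy 2.4.6 and matplotlib 3.10.9 under Python 3.11.15. Protein sequences and an *Agtr1a* promoter window were not used here.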

Additional observations from a re-analysis of the deposited data

How the results depend on the processing

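*Agtr1a* stayed higher in the *Foxf2*-/- embryos under every alternative run for it. Its log2 difference of 0.96 became 0.63 with a pseudocount of 1 FPKM, 1.01 with 0.01 and 1.03 with median-ratio scaling, and leaving out 1 embryo at a time gave 0.70 to 1.21. With a pseudocount of 1 FPKM it was no longer more than 1.5-fold above each control (1.39-fold over the heterozygote). The same held without the first *Foxf2*-/- embryo (1.42-fold). *Agtr1a* stayed past that limit, against each control left, in the other 6 settings run, but some of these could not change the call. Entries of any length repeated the main values, as *Agtr1a* has a single entry. Leaving out a control only dropped a comparison that was already past the limit. With a mean FPKM of at least 2 required, *Agtr1a* itself would not be tested. *Agtr2*, at 0.31, gave -0.10 to 0.72 when 1 embryo was left out, with the sign reversed at -0.10 without the *Foxf2*+/- embryo, and 0.29 to 0.39 otherwise. The count of genes more than 1.5-fold from each control, 234 (104 higher, 130 lower), became 72 with a pseudocount of 1 FPKM, 370 with entries of any length, 639 with no filter, 86 with a mean FPKM of at least 2, 51 at 2-fold, and 341 to 838 without 1 embryo, with 838 without *Foxf2*+/-, 477 without *Foxf2*+/+ and 367 without the second *Foxf2*-/- embryo. Median-ratio scaling shifted the median of all genes from -0.08 to -0.00052 and the split to 128 higher and 91 lower. The 8 limma calls became 5 with a pseudocount of 0.01, 27 with entries of any length, 15 with a separate mean for each genotype, 0 with no filter and 0 without a variance trend, and 7 to 23 without 1 embryo, with 23 without *Foxf2*+/-. The drop of *Foxf2* missed the threshold with no filter, with null alleles as a linear term and without a variance trend (adjusted p = 0.362, 0.0788 and 0.182). *Foxq1*, *Exoc2*, *Cpm* and 1700018A04Rik passed it under 3, 2, 2 and 3 alternatives. With all 4 embryos, *Foxq1*, *Exoc2* and *Cpm* passed with null alleles as a linear term (limma, adjusted p = 0.0393 for each). 1700018A04Rik passed with a pseudocount of 1 FPKM (adjusted p = 0.0344). *Foxq1* also passed with a separate mean for each genotype, where each control genotype has 1 embryo. The other passes came from leaving out the *Foxf2*+/- embryo for *Foxq1*, *Exoc2* and *Cpm*, and either *Foxf2*-/- embryo for 1700018A04Rik. Leaving out an embryo leaves 1 arm with a lone embryo, assumed to vary like the other arm. The cause was not tested. No paired analysis was possible because each control genotype has 1 embryo, so the groups share fewer than 2 replicate numbers. Depth limits *Agt*, *Agtr1b* and *Ace* most.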
